A study of Mus musculus with 6 samples.

Results

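The *Slc25a* genes encode the mitochondrial carrier family, and their expression was compared in gonadal white adipose tissue (GWAT) of *ob/ob/Fsp27-/-* and *ob/ob* mice. Every gene whose symbol starts with *Slc25a* was taken, whatever its values, which gave 46 genes of the 19937 genes with a probeset of 1 gene symbol. The family itself was chosen with earlier results of these data known. The *ob/ob/Fsp27-/-* mice were leptin-deficient and also lacked Fsp27 (*Cidec*), a lipid droplet protein of adipocytes that promotes the fusion of droplets. The *ob/ob* mice were leptin-deficient with Fsp27 present, so that leptin deficiency was shared by all animals. All mice were male, chow-fed, 4 months old and, per the study's methods, on a C57BL/6J background, with Fsp27 deleted throughout the body and not in adipocytes alone. RNA was hybridized to 6 GeneChip Mouse Gene 1.0 ST arrays, 3 per genotype. Per the methods each array held RNA pooled from 3 mice, whereas the labels give a single number per array and no pool, so n counts arrays, p-values measure the spread between arrays, and that between single mice is unknown.

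Mitochondrial carriers are small proteins that cross the inner mitochondrial membrane and move metabolites, nucleotides, cofactors or protons that the membrane would otherwise hold back. They exchange ADP for ATP, import phosphate, pyrimidine nucleotides and acylcarnitines, and carry reducing equivalents between cytosol and matrix through the malate-aspartate shuttle. In adipocytes the citrate carrier delivers citrate to the cytosol, where it is the source of acetyl-CoA for fatty acid synthesis, and brown adipocytes owe their heat production to a member of the same family, Ucp1, which bears another symbol and is not counted among the 46 genes.

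Values are log2 values from the Robust Multi-array Average (RMA) algorithm, and a log2 change is the mean of *ob/ob/Fsp27-/-* minus the mean of *ob/ob* arrays, given with its standard error (SE). Calls of higher or lower rest on limma at an adjusted p under 0.05, adjusted over all 22961 probesets that carry a symbol, together with a minimum log2 change of 0.5 in either direction. The arrays of 1 genotype correlated at 0.988 to 0.994 across probesets and those of different genotypes at 0.943 to 0.965, and the array medians lay between 6.02 and 6.10. Defining adipocyte genes were at the upper end of the scale in both genotypes: the mean of 7 adipocyte markers was 12.30 to 12.35 on *ob/ob/Fsp27-/-* arrays and 11.17 to 11.92 on *ob/ob* arrays. Of these 7, 4 were called higher in *ob/ob/Fsp27-/-* mice. All 8 macrophage markers were lower, with a mean of 7.81 to 8.09 on *ob/ob/Fsp27-/-* arrays and 10.49 to 10.85 on *ob/ob* arrays. In whole tissue, fewer cells of a type and less RNA per cell cannot be told apart, and this holds for every change described here.

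Of the 46 *Slc25a* genes, 18 were higher, 4 were lower and 24 were not called in *ob/ob/Fsp27-/-* GWAT. The 22 called genes made up 47.8% of the family, against 20.4% of all genes. The higher genes made up 39.1% of the family, against 9.58% of all genes, and the lower genes 8.7%, against 10.8% of all genes. The median log2 change of the family was 0.30, against 0.06 for all genes. The largest increases were those of the citrate carrier gene *Slc25a1*, the ATP-Mg/phosphate carrier gene *Slc25a23* and the carnitine/acylcarnitine carrier gene *Slc25a20*, and the largest decrease was that of *Slc25a13*, which encodes the aspartate/glutamate carrier citrin. The 3 *ob/ob/Fsp27-/-* arrays all lay above the 3 *ob/ob* arrays for 26 of the 46 genes (56.5%, against 25.3% of all genes), and all below for 7 (15.2%, against 20.7%). In 10 of the 46 genes every array read below its own median, where little signal stands over background, and none of these was called. Over all genes this held for 7577 of 19937, a larger share than in the family. The called shares above were not adjusted for this difference in level. The 36 other genes held all 18 higher and all 4 lower genes. A probeset's level depends on its probes, so levels of different genes are not set against each other.

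**Figure D1:**
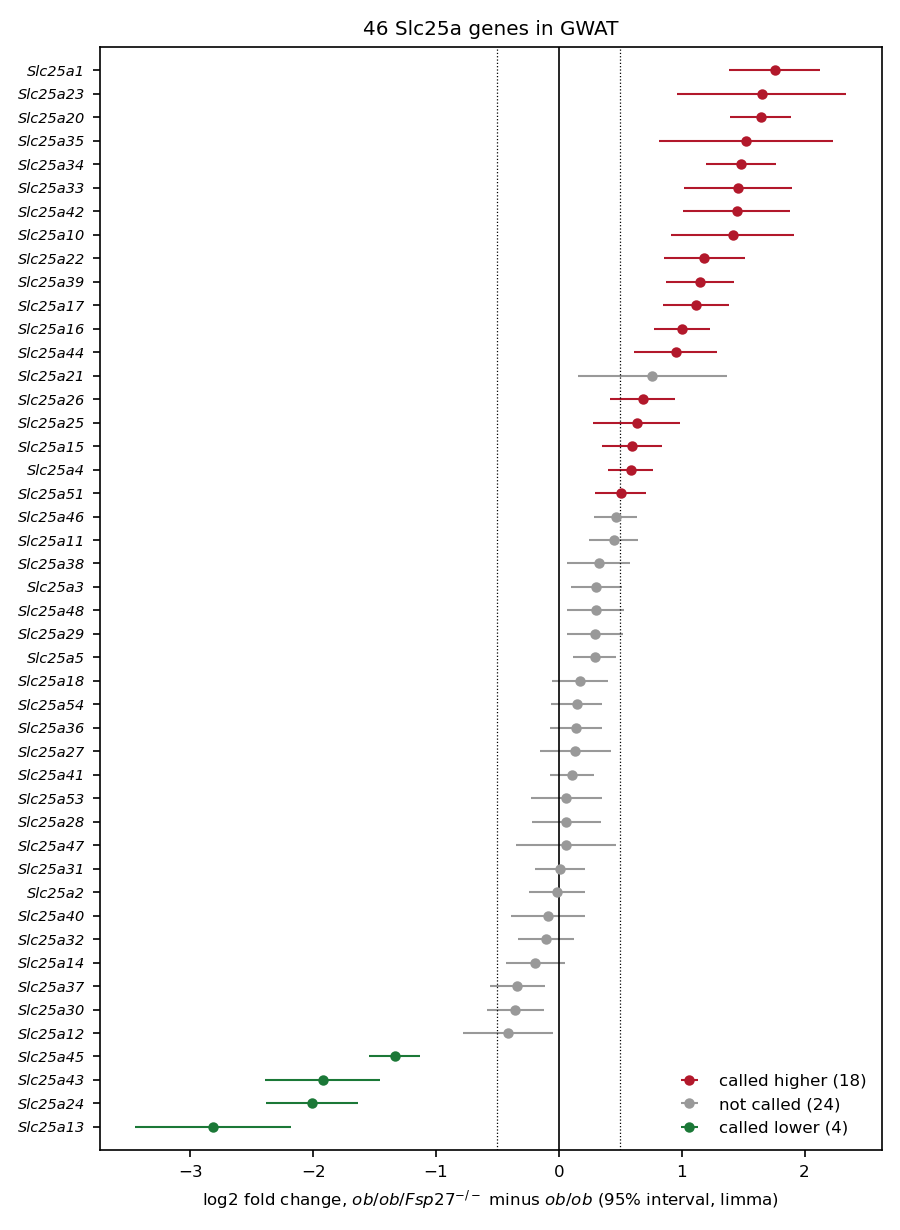
Log2 fold change (*ob/ob/Fsp27-/-* minus *ob/ob*) of the 46 *Slc25a* genes, ordered by size, with the 95% interval from limma. Red points are the 18 genes called higher, green points the 4 called lower and grey points the 24 not called, and dotted lines mark 0.5 in either direction. The 4 lower genes stand apart from the rest at the bottom, from −1.34 to −2.81.

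RefSeq promoters (GRCm38.p6, from 250 bases before to 50 after a start) were found for 36 of the 46 genes, among them 14 of the 18 higher and all 4 lower genes. They were searched on both strands for AAGGTCA, the core of the site bound by oestrogen-related receptors, and for TGCGCA, the core of the site of nuclear respiratory factor 1, since both factors are known to act on mitochondrial genes. AAGGTCA was present in 1 of the 36 genes, the called gene *Slc25a34*, and in 4.72% of all 32851 promoters. TGCGCA was present in 4 of the 36 genes and in 7.76% of all promoters. None of these 4, *Slc25a3*, *Slc25a21*, *Slc25a31* and *Slc25a36*, was called. Members were counted by gene, if any promoter of the gene matched, and the background by single promoter. The units differ, so these counts and shares are not directly comparable. No member held both motifs, so they could not overlap in any member promoter. A match is only a description of the letters in this window. A stretch around a match is given below for *Slc25a34*, the called gene with the first motif, at chr4:141623917-141623983 (minus strand), and for 2 uncalled genes with the second, *Slc25a3* at chr10:91124122-91124187 (minus strand) and *Slc25a36* at chr9:97111096-97111161 (minus strand). The sequences are RefSeq's, on the strand of the gene, and capitals mark the motif, which the stretch of *Slc25a3* holds 2 times, starting 209 and 190 bases before the start. In *Slc25a34* it lies on the opposite strand and is read in reverse complement.
Slc25a34: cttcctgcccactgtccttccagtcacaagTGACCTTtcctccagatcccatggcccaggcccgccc
Slc25a3: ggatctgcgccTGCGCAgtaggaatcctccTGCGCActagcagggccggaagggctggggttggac
Slc25a36: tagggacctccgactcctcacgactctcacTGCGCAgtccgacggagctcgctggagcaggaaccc

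Of 4 carriers of di- and tricarboxylates, 2 were higher, those of citrate and of dicarboxylates, and 2 were not called. *Slc25a1* encodes the citrate carrier, which exports citrate in exchange for malate. Its RMA values were 12.31, 12.41 and 12.40 on *ob/ob/Fsp27-/-* arrays, against 10.33, 10.56 and 10.97 on *ob/ob* arrays. The *ob/ob/Fsp27-/-* arrays lay close together and well above all *ob/ob* arrays, and the log2 change was 1.76, or 3.38-fold (SE 0.16, limma adjusted p = 0.000332). *Slc25a10* encodes the dicarboxylate carrier, which exchanges malate or succinate for phosphate and is known to be abundant in white fat. It read 11.53, 11.66 and 11.69 in *ob/ob/Fsp27-/-* GWAT, against 9.73, 10.25 and 10.65 in *ob/ob* GWAT, with a log2 change of 1.42 (SE 0.21, limma adjusted p = 0.00276). The genotypes did not overlap, and the *ob/ob* arrays were the more spread. The oxoglutarate carrier gene *Slc25a11*, whose product exchanges oxoglutarate for malate in the malate-aspartate shuttle, passed the test but stayed under the fold threshold (log2 change 0.45, SE 0.085, limma adjusted p = 0.00746). *Slc25a21*, the gene of the oxodicarboxylate carrier, read 5.20, 4.49 and 4.17 on *ob/ob/Fsp27-/-* arrays, against 3.67, 4.11 and 3.80 on *ob/ob* arrays. All of these values lie below the array medians, the first *ob/ob/Fsp27-/-* array stands above the others, and the gene was not called (log2 change 0.76, SE 0.26, limma adjusted p = 0.0661). Without *ob/ob/Fsp27-/-* array 3 it was called higher (log2 change 0.99, limma adjusted p = 0.0322). Among 3 genes listed as partners of citrate export, *Cs*, the citrate synthase gene, and *Me1*, the gene of cytosolic malic enzyme, were called higher (log2 changes 1.29 and 0.81). *Acly*, which encodes the enzyme that cleaves citrate to acetyl-CoA in the cytosol, was not called (log2 change 0.43, SE 0.19, limma adjusted p = 0.15). Thus 2 of the 3 genes of this list were called higher. The limma interval of the *Acly* change ran from −0.03 to 0.88 and so included the 0.81 of *Me1*. Whether *Acly* changed less than *Cs* or *Me1* was not tested.

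*Slc25a20*, the gene of the carrier that brings acylcarnitines into the matrix for beta-oxidation, was higher as well. Its values were 10.32, 10.53 and 10.47 on *ob/ob/Fsp27-/-* arrays, against 8.65, 8.78 and 8.95 on *ob/ob* arrays, which do not overlap and are narrow within each genotype. The log2 change was 1.64 (SE 0.11, limma adjusted p = 0.000105), or 3.12-fold. Of 4 measured partners in the carnitine shuttle, 3 were higher and none was lower. *Cpt2*, which encodes the carnitine palmitoyltransferase of the inner membrane, had a log2 change of 1.73 (SE 0.24, limma adjusted p = 0.00186), the carnitine acetyltransferase gene *Crat* of 1.01 and the carnitine transporter gene *Slc22a5* of 0.77. *Cpt1a*, the gene of an outer-membrane carnitine palmitoyltransferase, went the other way within the fold threshold (log2 change −0.33, SE 0.099, limma adjusted p = 0.0428). *Cpt1b* is not analysed here.

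The ATP-Mg/phosphate carriers, which adjust the adenine nucleotide content of the matrix in response to calcium, changed in opposite directions. *Slc25a23* read 9.46, 9.77 and 9.58 in *ob/ob/Fsp27-/-* GWAT, against 7.23, 8.17 and 8.46 in *ob/ob* GWAT. *ob/ob* array 1 was the lowest by far, and the log2 change was 1.65 (SE 0.29, limma adjusted p = 0.00554), or 1.29 without that array. *Slc25a24* read 7.78, 7.64 and 7.60 on *ob/ob/Fsp27-/-* arrays, against 10.03, 9.61 and 9.40 on *ob/ob* arrays. Here every *ob/ob/Fsp27-/-* array was well below every *ob/ob* array, with a log2 change of −2.01 (SE 0.16, limma adjusted p = 0.00021), which is a fall to 0.248 of the *ob/ob* level. The third gene, *Slc25a25*, read 7.83, 8.10 and 7.88 in *ob/ob/Fsp27-/-* mice, against 7.05, 7.27 and 7.59 in *ob/ob* mice. It was called higher, with arrays that do not overlap but come close (log2 change 0.63, SE 0.15, limma adjusted p = 0.018). That call was lost when the second array of either genotype was left out (limma adjusted p = 0.0676 for *ob/ob/Fsp27-/-* and 0.0649 for *ob/ob*). *Slc25a41*, which encodes a related carrier that lacks the calcium-binding part, read below the array medians throughout and was not called (log2 change 0.11, 95% interval −0.07 to 0.29).

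Aspartate/glutamate carriers admit glutamate to the matrix in exchange for aspartate, a step of the malate-aspartate shuttle. *Slc25a13*, the gene of the calcium-regulated carrier citrin, read 5.91, 5.57 and 4.91 on *ob/ob/Fsp27-/-* arrays, against 8.53, 8.39 and 7.91 on *ob/ob* arrays. *ob/ob/Fsp27-/-* array 3 was the lowest of all, no array of a genotype overlapped the other, and the log2 change of −2.81 (SE 0.27, limma adjusted p = 0.00041) was the largest in size among the 46 genes. The *ob/ob/Fsp27-/-* values lie below the array medians, so the size of this decrease is less certain than its direction. *Slc25a12* encodes the other isoform, aralar, and read 8.40, 8.58 and 8.25 in *ob/ob/Fsp27-/-* GWAT, against 9.09, 8.85 and 8.54 in *ob/ob* GWAT. The ranges overlapped through *ob/ob* array 3, and the gene was not called (log2 change −0.41, 95% interval −0.78 to −0.05, limma adjusted p = 0.0909). Without *ob/ob* array 3 it was called lower (log2 change −0.56, limma adjusted p = 0.0256). Of the 4 enzymes of the shuttle, the malate dehydrogenase genes *Mdh1* and *Mdh2* were higher (log2 changes 1.02 and 1.16) and the aspartate aminotransferase genes *Got1* and *Got2* were lower (−0.65 and −0.67). Carriers of glutamate alone differed again. *Slc25a22* read 8.24, 8.59 and 8.75 on *ob/ob/Fsp27-/-* arrays, against 7.25, 7.33 and 7.44 on *ob/ob* arrays, and was higher with no overlap (log2 change 1.18, SE 0.14, limma adjusted p = 0.000984). *Slc25a18* read 5.75, 5.59 and 5.45 on *ob/ob/Fsp27-/-* arrays, against 5.48, 5.38 and 5.41 on *ob/ob* arrays, near background and overlapping (log2 change 0.18, 95% interval −0.05 to 0.40).

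Besides *Slc25a13* and *Slc25a24*, the lower genes were *Slc25a43* and *Slc25a45*, for which no substrate is named here. *Slc25a43* read 6.44, 6.32 and 7.003 in *ob/ob/Fsp27-/-* mice, against 8.74, 8.53 and 8.27 in *ob/ob* mice, a log2 change of −1.92 (SE 0.20, limma adjusted p = 0.000579). *Slc25a45* read 7.01, 6.97 and 6.90 in *ob/ob/Fsp27-/-* mice, against 8.43, 8.23 and 8.23 in *ob/ob* mice, a log2 change of −1.34 (SE 0.089, limma adjusted p = 0.000115). In both genes the genotypes were far apart relative to the spread of their arrays. The macrophage markers fell together with these 4 genes, all 8 by log2 changes from −1.68 (*Mrc1*) to −3.61 (*Itgax*), and 2 of 5 stromal progenitor markers, *Pdgfra* and *Col1a1*, were lower too. Their part in the decrease of the 4 carriers was not tested.

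**Figure D2:**
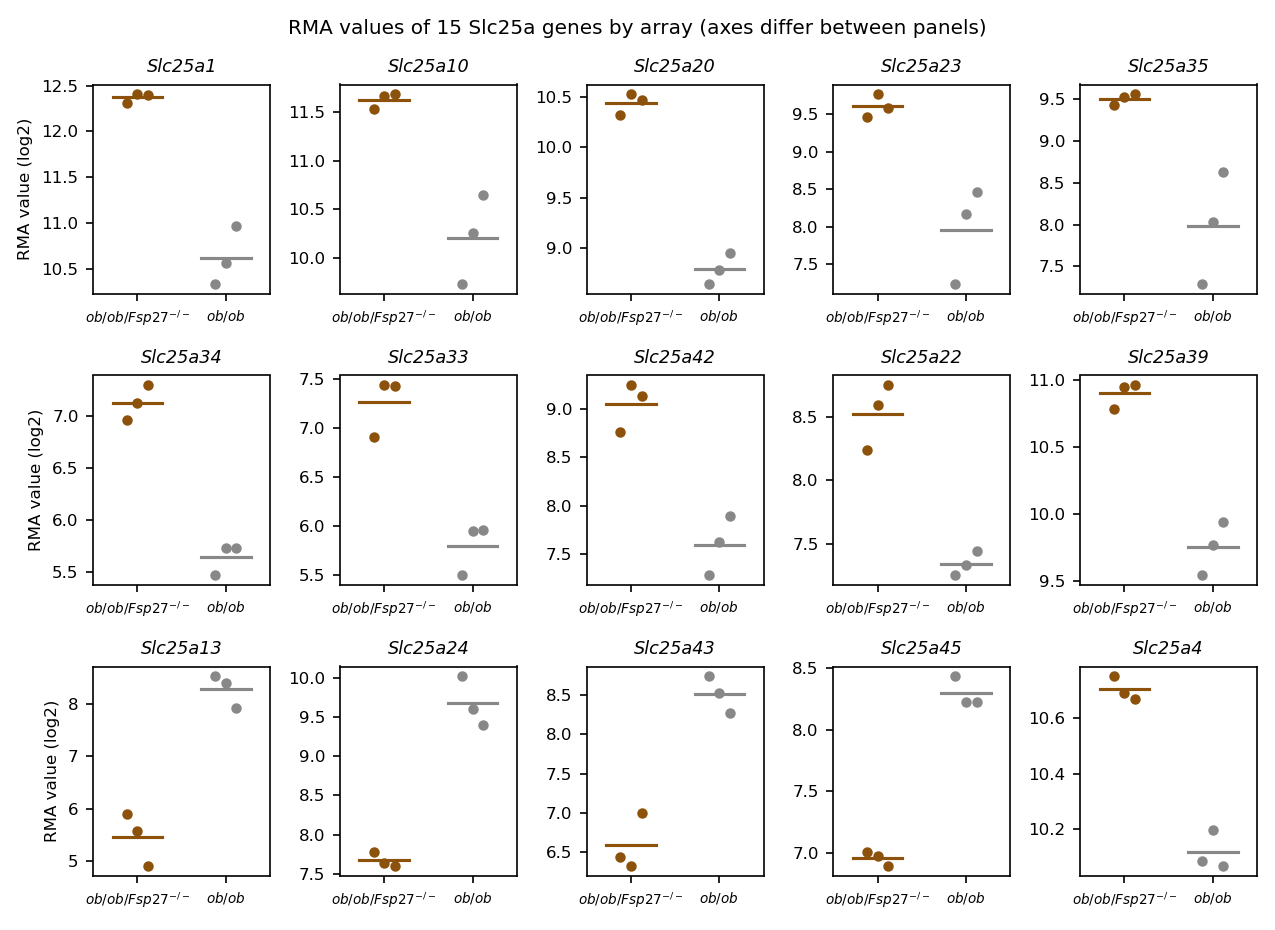
RMA values (log2) of 15 *Slc25a* genes, with 1 point per array, *ob/ob/Fsp27-/-* in brown on the left and *ob/ob* in grey on the right, and horizontal bars for the means. Each panel has its own axis. No panel shows overlap, and the 4 lower genes are *Slc25a13*, *Slc25a24*, *Slc25a43* and *Slc25a45*.

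Carriers of cofactors and nucleotides were mostly higher, 7 of 10 measured genes, with none lower. *Slc25a42* encodes a carrier of coenzyme A. It read 8.76, 9.25 and 9.13 on *ob/ob/Fsp27-/-* arrays, against 7.28, 7.62 and 7.89 on *ob/ob* arrays, all *ob/ob/Fsp27-/-* values being higher (log2 change 1.45, SE 0.18, limma adjusted p = 0.00138). *Slc25a33*, the gene of a pyrimidine nucleotide carrier, read 6.91, 7.43 and 7.43 in *ob/ob/Fsp27-/-* GWAT, against 5.50, 5.94 and 5.95 in *ob/ob* GWAT. The first array of each genotype was the lowest, and the log2 change was 1.46 (SE 0.19, limma adjusted p = 0.00137). *Slc25a36*, which also encodes a pyrimidine nucleotide carrier, read 10.28, 10.17 and 10.41 on *ob/ob/Fsp27-/-* arrays, against 10.11, 10.21 and 10.11 on *ob/ob* arrays, with overlap (log2 change 0.14, 95% interval −0.07 to 0.35). *Slc25a39*, whose product imports glutathione, read 10.79, 10.95 and 10.97 in *ob/ob/Fsp27-/-* mice, against 9.55, 9.77 and 9.94 in *ob/ob* mice and was higher (log2 change 1.15, SE 0.12, limma adjusted p = 0.00055). Its relative *Slc25a40* read 8.01, 7.78 and 8.04 in *ob/ob/Fsp27-/-* mice, against 8.10, 8.19 and 7.81 in *ob/ob* mice, and the arrays of the genotypes were mixed (log2 change −0.09, 95% interval −0.39 to 0.21).

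*Slc25a17*, which encodes the family's carrier in the peroxisomal membrane, had a log2 change of 1.12 (SE 0.11, limma adjusted p = 0.000551), and *Slc25a16*, linked to coenzyme A through its yeast counterpart, of 1.002 (SE 0.098, limma adjusted p = 0.000443). For *Slc25a26*, the gene of the S-adenosylmethionine carrier, it was 0.68 (SE 0.11, limma adjusted p = 0.00421). *Slc25a51*, the gene of the mitochondrial NAD carrier, lay at the fold threshold, with 10.16, 10.24 and 10.27 on *ob/ob/Fsp27-/-* arrays, against 9.58, 9.80 and 9.77 on *ob/ob* arrays. Its log2 change was 0.50 (SE 0.088, limma adjusted p = 0.0052), and it dropped just under the threshold, while still passing the test, when the second (0.497) or the third (0.483) *ob/ob/Fsp27-/-* array or the first *ob/ob* array (0.437) was left out. *Slc25a32*, the gene of a folate or FAD carrier, was not called (log2 change −0.11, 95% interval −0.33 to 0.12).

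Of the 4 carriers of adenine nucleotides and phosphate, which serve ATP synthesis directly, 1 was called higher and none lower. *Slc25a4* encodes the ADP/ATP translocase of heart and muscle, and *Slc25a5* the widespread isoform. *Slc25a4* read 10.75, 10.69 and 10.67 on *ob/ob/Fsp27-/-* arrays, against 10.09, 10.20 and 10.07 on *ob/ob* arrays, and was called higher (log2 change 0.58, SE 0.077, limma adjusted p = 0.00158). *Slc25a5* read 12.66, 12.64 and 12.75 on *ob/ob/Fsp27-/-* arrays, against 12.41, 12.41 and 12.35 on *ob/ob* arrays. All *ob/ob/Fsp27-/-* arrays were higher, but the change stayed within the fold threshold (log2 change 0.29, SE 0.075, limma adjusted p = 0.0238). The phosphate carrier gene *Slc25a3* was alike, with a log2 change of 0.31 (SE 0.088, limma adjusted p = 0.0384). *Slc25a31*, the isoform of male germ cells, read 3.62, 3.76 and 3.69 on *ob/ob/Fsp27-/-* arrays, against 3.59, 3.79 and 3.67 on *ob/ob* arrays, near the bottom of the scale in both genotypes. *Slc25a5* has 3 probesets, with log2 changes of 0.29, 0.44 and 0.47, none of them called, and signal from near-identical copies of this gene cannot be told apart by probes that they share. Of 7 measured subunits of ATP synthase, the enzyme these carriers serve, 6 were called higher and none lower, with a median log2 change of 0.69.

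Among the other amino acid carriers, *Slc25a44* and *Slc25a15* were higher and none was lower. *Slc25a44*, the gene of a carrier of branched-chain amino acids that is known from brown fat, had a log2 change of 0.95 (SE 0.14, limma adjusted p = 0.0029). *Slc25a15*, the gene of the ornithine carrier of the urea cycle, read 7.75, 7.60 and 7.45 in *ob/ob/Fsp27-/-* GWAT, against 6.96, 7.12 and 6.94 in *ob/ob* GWAT, with a log2 change of 0.59 (SE 0.10, limma adjusted p = 0.0051). The second ornithine carrier gene, *Slc25a2*, read 4.88, 4.67 and 4.64 in *ob/ob/Fsp27-/-* GWAT, against 4.83, 4.66 and 4.76 in *ob/ob* GWAT, below the array medians and overlapping. *Slc25a29*, for basic amino acids, and *Slc25a38*, the glycine carrier gene needed for haem synthesis, had arrays that did not overlap but missed the test (log2 changes 0.29 and 0.32, limma adjusted p = 0.0602 and 0.0646).

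The mitoferrin genes, which encode the iron importers, were not called. *Slc25a37* read 7.93, 8.15 and 8.13 on *ob/ob/Fsp27-/-* arrays, against 8.52, 8.35 and 8.35 on *ob/ob* arrays. Every *ob/ob/Fsp27-/-* array was lower, within the fold threshold (log2 change −0.34, SE 0.096, limma adjusted p = 0.0356). *Slc25a28* read 8.42, 8.60 and 8.21 on *ob/ob/Fsp27-/-* arrays, against 8.34, 8.24 and 8.47 on *ob/ob* arrays, and the genotypes were mixed (log2 change 0.06, 95% interval −0.22 to 0.34). Of 5 partner genes of iron-sulphur and haem synthesis, 3 were higher and none lower, namely *Iscu* (log2 change 0.69), the scaffold on which clusters are built, *Nfs1* (0.72), the cysteine desulphurase, and *Abcb10* (0.73), a transporter known to bind the mitoferrin of red cells. *Iscu* has 2 probesets, of which only that of higher mean was read. The uncoupling-protein-like carriers were not called either. *Slc25a30* read 8.37, 8.49 and 8.62 in *ob/ob/Fsp27-/-* mice, against 8.81, 8.97 and 8.76 in *ob/ob* mice, lower on all arrays but within the fold threshold (log2 change −0.35, SE 0.098, limma adjusted p = 0.0329). *Slc25a14* read 5.47, 5.50 and 5.22 in *ob/ob/Fsp27-/-* mice, against 5.60, 5.67 and 5.51 in *ob/ob* mice, below the array medians (log2 change −0.19, 95% interval −0.43 to 0.05). *Slc25a27* did not pass the test (log2 change 0.13, 95% interval −0.15 to 0.42).

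The remaining members include *Slc25a46* of the outer membrane, known for its part in mitochondrial shape, which passed the test but not the fold threshold (log2 change 0.46, SE 0.074, limma adjusted p = 0.00366). *Slc25a35* and *Slc25a34*, neighbours in the family with no substrate named here, were higher. *Slc25a35* read 9.43, 9.52 and 9.56 on *ob/ob/Fsp27-/-* arrays, against 7.29, 8.03 and 8.64 on *ob/ob* arrays. Its *ob/ob* arrays spread over more than the gap to the *ob/ob/Fsp27-/-* arrays, and the log2 change of 1.52 (SE 0.30, limma adjusted p = 0.00863) was 1.18 without *ob/ob* array 1. *Slc25a34* read 6.96, 7.13 and 7.30 on *ob/ob/Fsp27-/-* arrays, against 5.47, 5.73 and 5.73 on *ob/ob* arrays, a log2 change of 1.48 (SE 0.12, limma adjusted p = 0.000231). Both genotypes were narrow there, and the *ob/ob* values lie below the array medians, as they do for *Slc25a33*, so that the size of these increases is less certain than their direction. *Slc25a47*, *Slc25a48*, *Slc25a53* and *Slc25a54* were not called, with log2 changes from 0.06 to 0.30, and all but *Slc25a47* read below the array medians on every array.

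Related carriers were compared directly by the log2 value of the first minus the second gene on each array, with an exact two-sided permutation test of the genotypes over 10 pairs. With 3 arrays against 3 the smallest possible p is 0.1, so no pair could pass, and it was reached by 8 pairs (0.125 after adjustment over the 10 pairs), in which the 3 *ob/ob/Fsp27-/-* arrays lay to 1 side of the 3 *ob/ob* arrays. The largest difference was that of *Slc25a24* minus *Slc25a25*, whose log2 changes differed by −2.64, followed by *Slc25a12* minus *Slc25a13* at 2.40. *Slc25a33* changed by 1.32 more than *Slc25a36*, *Slc25a39* by 1.24 more than *Slc25a40* and *Slc25a23* by 1.02 more than *Slc25a25*. The difference was −1.01 for *Slc25a18* minus *Slc25a22*, −0.61 for *Slc25a2* minus *Slc25a15* and 0.29 for the ADP/ATP translocases *Slc25a4* minus *Slc25a5*. For the translocases it rests on the *Slc25a5* probeset of highest mean, whose position in the genome was not examined. The other *Slc25a5* probesets had log2 changes of 0.44 and 0.47, nearer to the 0.58 of *Slc25a4*, and were not used in the pair. *Slc25a18* and *Slc25a2* read below the array medians on every array, so their pairs mostly restate the changes of *Slc25a22* and *Slc25a15*. Likewise *Slc25a36* and *Slc25a40* were not called, with log2 changes of 0.14 and −0.09. Their pairs thus mostly restate the changes of *Slc25a33* and *Slc25a39*. For the mitoferrins *Slc25a28* minus *Slc25a37* (0.40, exact p = 0.2) and for *Slc25a14* minus *Slc25a30* (0.16, exact p = 0.4) the arrays of the genotypes overlapped.

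**Figure D3:**
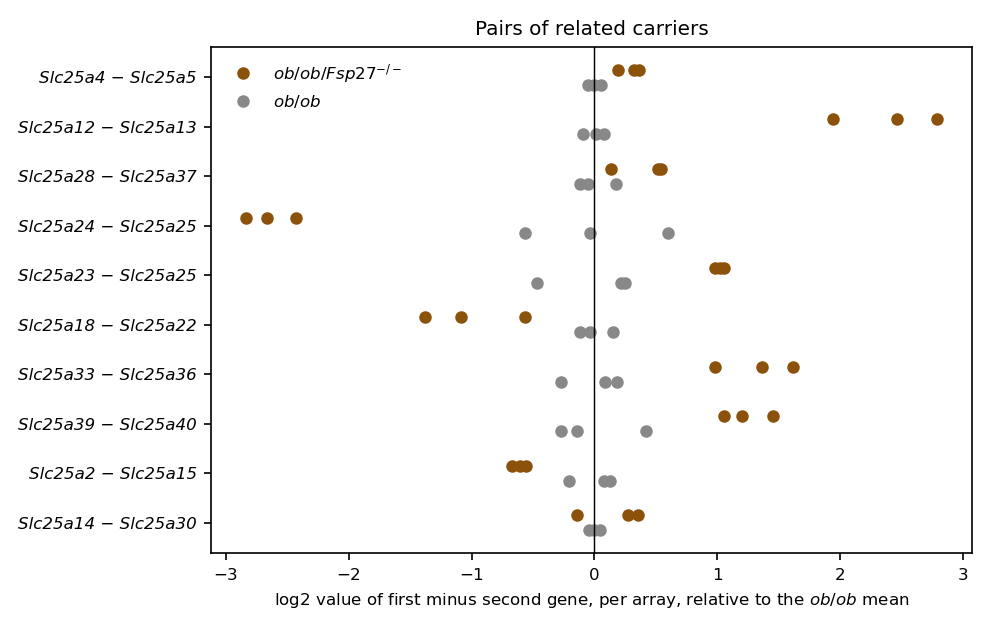
Log2 value of the first minus the second gene of 10 pairs of related carriers, 1 point per array, relative to the mean of the *ob/ob* arrays, with *ob/ob/Fsp27-/-* in brown above *ob/ob* in grey. The genotypes are apart in 8 pairs, farthest in *Slc25a24* minus *Slc25a25* (−2.64) and *Slc25a12* minus *Slc25a13* (2.40), and overlap in the mitoferrin pair and in *Slc25a14* minus *Slc25a30*.

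Genes of the family under other symbols and genes that surround it were also read. *Ucp3*, an uncoupling protein of muscle and brown fat, was higher with a log2 change of 2.25 (SE 0.21, limma adjusted p = 0.000354), and so was *Mtch2*, an outer-membrane relative (1.13, SE 0.099, limma adjusted p = 0.000308). *Mtch2* has 2 probesets, and only that of higher mean was read. *Ucp1* (0.40, 95% interval −0.37 to 1.18) and *Mtch1* (0.08, 95% interval −0.16 to 0.32) were not called, and *Ucp2* is not analysed here. *Mpc1*, a subunit of the pyruvate carrier, which belongs to another family, was higher (0.98, SE 0.12, limma adjusted p = 0.00109), whereas none of the porin genes *Vdac1*, *Vdac2* and *Vdac3* was called (log2 changes −0.15 to 0.48). Of 6 factors that act on mitochondrial genes, 4 were higher and none lower. These were the coactivator genes *Ppargc1a* (1.88) and *Ppargc1b* (1.73), the nuclear receptor gene *Esrra* (0.68) and *Tfam* (0.55), which encodes the packaging protein of mitochondrial DNA. Of 6 brown and beige adipocyte markers, 5 were higher, all except *Ucp1*.

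The *ob/ob* arrays were not alike for the called carriers. *ob/ob* array 1 gave the lowest *ob/ob* value for 16 of the 18 higher *Slc25a* genes and the highest for all 4 lower genes. Over all genes called higher it gave the lowest value in 77.3%, and over all genes called lower the highest in 66.7%, so the pattern was not confined to the family. The adipocyte markers followed the same order, with means of 11.17, 11.67 and 11.92 on *ob/ob* arrays 1, 2 and 3 and array 1 lowest in all 7, and the macrophage markers the opposite one, with means of 10.85, 10.71 and 10.49. The endothelial markers had means of 9.57 to 9.72 on *ob/ob/Fsp27-/-* arrays, against 8.58, 9.17 and 9.09 on *ob/ob* arrays 1, 2 and 3. In all 5 the *ob/ob/Fsp27-/-* arrays lay above the *ob/ob* arrays and *ob/ob* array 1 was the lowest, and 2 were called higher, *Kdr* (log2 change 1.40) and *Cdh5* (0.64). None of the 5 measured T-cell markers was called, with means of 5.56 to 5.80 on *ob/ob/Fsp27-/-* arrays, against 5.98, 5.73 and 5.51 on *ob/ob* arrays 1, 2 and 3, and all 5 were highest on *ob/ob* array 1 among the *ob/ob* arrays. The 4 measured B-cell markers were not called either, but their means on *ob/ob/Fsp27-/-* arrays 1, 2 and 3 were unlike, at 5.69, 6.38 and 7.05. On *ob/ob* arrays they were 5.32 to 5.63, and in 3 of the 4 markers all *ob/ob/Fsp27-/-* arrays lay above the *ob/ob* arrays. The part of these markers in the changes of the carriers was not tested. Without *ob/ob* array 1, 17 *Slc25a* genes were higher and 4 lower. In all, 16 of the 18 higher and all 4 lower genes were called whichever array was left out, the exceptions being *Slc25a25* and *Slc25a51*.

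**Figure D4:**
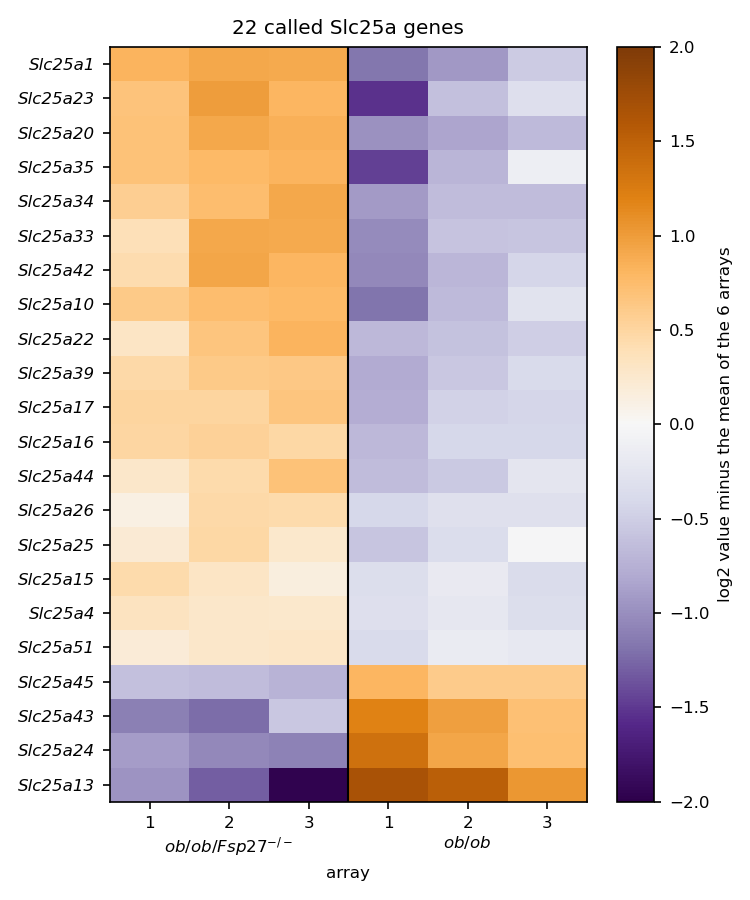
Log2 value minus the mean of the 6 arrays for the 22 called *Slc25a* genes (rows, by log2 change) on the 3 *ob/ob/Fsp27-/-* arrays (left) and the 3 *ob/ob* arrays (right), orange above and purple below the mean. *ob/ob* array 1 is the most extreme *ob/ob* array in 16 of the 18 higher and all 4 lower genes.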

How the data were processed

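GWAT RNA of both genotypes was hybridized to 6 arrays. The authors adjusted the background, normalized by quantiles and summarized the probes to log2 values with RMA, and the deposited log2 values were used as given. Their versions of RMA and limma are not given. Of 34760 probesets, 22961 carry a symbol and 21640 carry 1 symbol, and 21553 of the latter were matched by Entrez number to RefSeq symbols. A gene was represented by the probeset whose mean over all arrays was highest (43 members have 1 probeset and 3 have several). The same rule held for genes outside the family. Positions of probesets in the genome were not examined, so a chosen probeset may read a copy of its gene elsewhere. The comparison used limma 3.58.1 under R 4.3.3 (lmFit, eBayes, no covariates) and Benjamini-Hochberg adjustment over the 22961 probesets. Detection calls, on which the study filtered, cannot be made from summarized values, and filters on level were tried instead. Groups came from the strain label, and arrays were numbered in the order of the labels.

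The members and all lists were chosen with earlier results of these data known. Every member could be named. Values of every array were given for the 10 largest increases and the decreases among called members, for the genes of the pairs and for members whose call changed without 1 array, and other genes came only from lists written from general knowledge. On simulated data with 22961 probesets, 200 of them changed, this comparison found 11 of 61 log2 changes of size 0.5, 56 of 71 of size 1 and 66 of 68 of size 2, and made 7 false calls. The simulated noise was normal, independent between arrays and of equal spread in both genotypes. Far fewer probesets changed there than the 20.4% of genes called in the data. The counts hold for that setting and do not give the power reached here. At size 0.5 the fold threshold itself also limited the count. Arrays have no read depth, and 3 arrays per genotype limit the precision. Plots were made in matplotlib 3.10.9 (python 3.11.15).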

Additional observations from a re-analysis of the deposited data

How the results depend on the processing

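The 18 higher and 4 lower *Slc25a* genes were recounted with filters on level, all probesets, 3 other scalings, 3 other variance models, 3 other thresholds, probesets of a gene averaged and each array left out. The higher genes numbered 11 when limma's treat tested against a log2 change of 0.5, where *Slc25a35*, *Slc25a44* and the 5 smallest of the 18 no longer passed, and 12 to 22 elsewhere (16 to 18 with an array left out). The lower genes numbered 4 to 6. The median log2 change of the family was 0.48 with the filter at the median of all values, which removes 10 members, and 0.29 to 0.35 elsewhere. Over all genes, treat gave 566 higher and 939 lower genes, a log2 change of at least 1 gave 652 and 955, and no fold threshold gave 2936 higher genes. Centring on housekeeping genes added *Slc25a21* and *Slc25a46* to the higher genes, and array weights removed *Slc25a51*. The housekeeping genes were not themselves stable. Of 12 measured, *Sdha* was called higher (log2 change 1.07) and *Rps18* lower (−0.51). On all *ob/ob/Fsp27-/-* arrays 6 of them lay below and 2 above the *ob/ob* arrays. No called member changed sign under any alternative. All 90 pair differences recomputed under other scalings or with an array left out kept their sign. Centring an array on its median or on housekeeping genes shifts both genes of a pair alike, so those pair differences could not change. Only cyclic loess and leaving an array out could alter them. No paired analysis was possible because the array numbers of the genotypes share no value. Changes near the fold threshold and genes under the array median are where 3 arrays limit the calls most.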
